A study of Rattus norvegicus with 7 samples.

Results

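The regions described here are stretches of acetylated chromatin in S16, a rat Schwann cell line, at sites where SREBP1 was found in rat sciatic nerve and where neither YY1 nor TEAD1 was found in S16. The regions were chosen by overlap of deposited peak positions, as peaks of histone H3 lysine 27 acetylation (H3K27ac, found at promoters and enhancers in use) that share 1 bp or more with a peak of the nerve SREBP1 list and with no peak of the YY1 or TEAD1 list. Of the 99514 H3K27ac peaks outside the mitochondrial genome, 2913 (2.93%) met this rule. The rule thus used 4 of the lists, and the presence of SREBP1 and the absence of YY1 and TEAD1 are not findings.

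The series maps protein positions by CUT&RUN (an antibody tethers a nuclease that cuts out the bound DNA) for NR2F2, YY1, RXRG and TEAD1 in S16. H3K27ac in S16 and SREBP1 in nerve were mapped by ChIP-seq. S16 is an immortalised line that received no treatment, and the nerves came from wild type rats at postnatal day 15. Each target had 1 library, so that no replicate error exists and no test between classes of regions was made. The intervals below are 95% exact binomial (Clopper-Pearson) intervals, or for medians their order-statistic counterpart, and for ratios of shares a normal approximation on the log scale. They cover counting error only and treat regions as independent, which neighbours on a chromosome are not. Read depth is unknown, because the deposited lists give positions and no counts. The SREBP1 list comes from a tissue that holds other cells besides Schwann cells, and the acetylation from a cell line. Whether both were present in the same cells was not tested.

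SREBP1 is a transcription factor held in membranes as a precursor, and its released part enters the nucleus and switches on genes of fatty acid and other lipid synthesis. Myelinating Schwann cells make large amounts of membrane lipid. YY1 is a zinc finger protein found at many promoters and enhancers and is needed for peripheral myelination. TEAD1 carries the coactivators YAP and TAZ to DNA. NR2F2 (COUP-TFII) is an orphan nuclear receptor and RXRG is a retinoid X receptor, a family whose members pair with many other nuclear receptors.

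The set is the smaller part of the SREBP1 sites in acetylated chromatin. An SREBP1 peak was present in 14916 H3K27ac peaks (15.0% of all), and 11730 of these also held YY1, 273 held TEAD1 without YY1, and the remaining 2913 (19.5%) held neither. Leaving out TEAD1 took little from the set, since 91.4% of the 3186 SREBP1 regions without YY1 also lacked TEAD1. The 2913 regions covered 3.12 Mb and lay on all 20 autosomes and on X, with none on unplaced sequence, where the SREBP1 list has no peak. Nearly all held a single SREBP1 peak (2905 regions), and 8 (0.275%) held 2, against 178 (1.52%) of the regions with SREBP1 and YY1 that held 2 or more.

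NR2F2 was rare in these regions. It was present in 155 of the 2913 (5.32%, 4.53 to 6.20%), where 25.5% of all H3K27ac peaks held it. Among the acetylated regions with SREBP1 and YY1 the share was 51.6% (6056 of 11730, 50.7 to 52.5%). Among the 63485 acetylated regions with none of SREBP1, YY1 and TEAD1 it was 16.2% (15.9 to 16.5%). The share in the SREBP1 regions without YY1 and TEAD1 was therefore 0.329 times that of regions lacking all 3 factors (0.282 to 0.383) and 0.103 times that of the SREBP1 regions with YY1. The 273 regions with SREBP1 and TEAD1 but no YY1 held NR2F2 at 8.42% (5.42 to 12.4%), an interval that overlaps that of the regions without TEAD1.

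RXRG was also infrequent, and less so than NR2F2. It was present in 244 regions (8.38%, 7.40 to 9.44%), against 20.5% of all H3K27ac peaks. The share was 40.4% (39.5 to 41.3%) in the regions with SREBP1 and YY1, and 12.6% (12.3 to 12.8%) in those with none of SREBP1, YY1 and TEAD1. In the 273 regions with SREBP1 and TEAD1 but no YY1 it was 5.13% (2.83 to 8.45%), below the 8.38% though with overlapping intervals. The ratio to the regions with none of the 3 factors was 0.667 (0.590 to 0.753). RXRG was thus found in more of these regions than NR2F2, whereas over all H3K27ac peaks, and in the other 3 classes named, NR2F2 was the more frequent of the pair. By chromosome, more of the regions held RXRG than NR2F2 on 17 of 21, equal numbers were found on chromosome 3, and chromosomes 4, 19 and 20 had more with NR2F2.

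**Figure D1:**
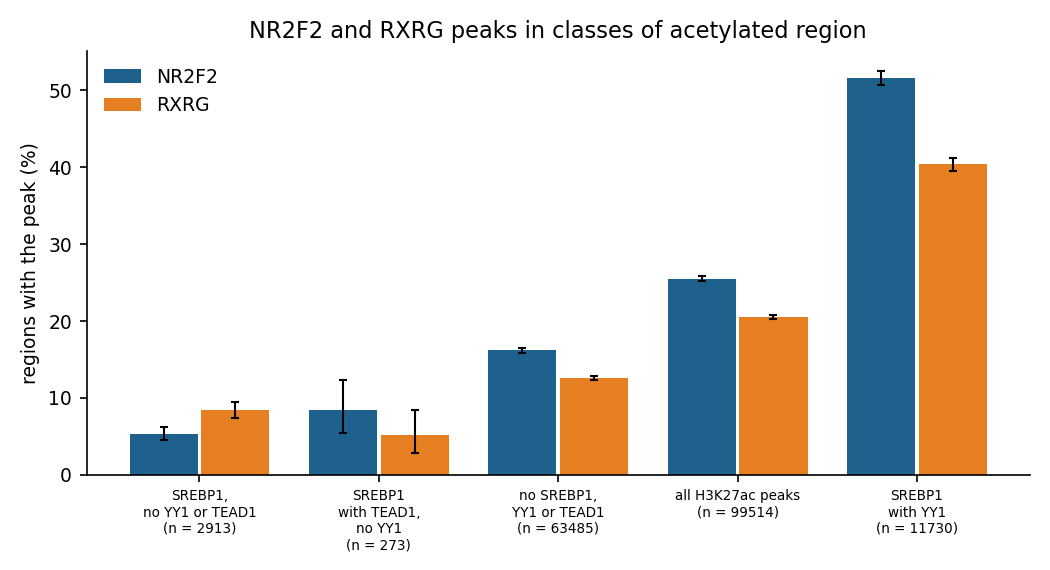
Share of acetylated regions (%, vertical axis) that hold an NR2F2 or an RXRG peak, in 5 classes of H3K27ac peak, with 95% exact binomial intervals as error bars. The regions with SREBP1 but without YY1 and TEAD1 have 5.32% with NR2F2 and 8.38% with RXRG, the lowest NR2F2 share of the 5 classes, and the highest shares are those of the regions with SREBP1 and YY1.

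Most of the regions, 2569 or 88.2% (87.0 to 89.3%), held neither nuclear receptor, where 66.9% of all H3K27ac peaks held neither. The share was alike, 89.0% (84.7 to 92.5%), in the 273 regions with SREBP1 and TEAD1 but no YY1. It was 76.8% in the regions with none of SREBP1, YY1 and TEAD1. NR2F2 alone was in 100 regions (3.43%), RXRG alone in 189 (6.49%) and both in 55 (1.89%, where 12.9% of all H3K27ac peaks held both). RXRG was in 35.5% of the 155 regions with NR2F2 and in 6.85% of the 2758 without it, a ratio of 5.18. The same ratio was 5.01 over all H3K27ac peaks (50.7% against 10.1%), so that in this direction the value here was near that of acetylated chromatin as a whole. It was 4.12 in the regions with none of the 3 factors (34.4% against 8.34%) and 2.99 in those with SREBP1 and YY1 (59.5% against 19.9%). Read from the other side, 22.5% of the 244 regions with RXRG held NR2F2, against 44.4% and 76.1% of RXRG regions in those 2 classes. RXRG was thus without NR2F2 more often in these regions than in those classes. NR2F2 was in 3.75% of the 2669 regions without RXRG. The ratio in this direction was 6.02, higher than the 3.99 over all H3K27ac peaks. It was 3.65 in the regions with none of the 3 factors and 2.17 in those with SREBP1 and YY1. In the regions with SREBP1 and TEAD1 but no YY1 the ratios were higher than here, at 10.9 and 8.09 in the 2 directions. Those rest on 23 regions with NR2F2 and 14 with RXRG, and 50% of the 14 held NR2F2.

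The few NR2F2 peaks in these regions were narrow. The 162 peaks had a median width of 249.5 bp, against 303 bp in the whole NR2F2 list, 304 bp in the acetylated regions with none of the 3 factors and 380 bp in those with SREBP1 and YY1. The 257 RXRG peaks had a median of 187 bp, close to the 184 bp of their whole list and the 196 bp with none of the 3 factors, against 262 bp with SREBP1 and YY1. In the regions with SREBP1 and TEAD1 but no YY1 the medians were also low, at 276.5 bp for 26 NR2F2 peaks and 176.5 bp for 14 RXRG peaks. No intervals were computed for these medians. The 162 NR2F2 peaks lay in 155 regions, of which 7 held 2 or more, and the 257 RXRG peaks in 244, of which 12 did. In the regions with none of the 3 factors, 10686 NR2F2 peaks lay in 10283 regions and 8363 RXRG peaks in 7977. Several peaks of a receptor in 1 region were thus uncommon there too. A wider peak meets a region more readily, so that peak width and the shares above are not separate measures.

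The acetylated regions were of middling width. Their median was 933 bp (898 to 962 bp), with quartiles of 516 and 1437 bp and a range of 231 to 5329 bp. All H3K27ac peaks had a median of 737 bp, the regions with none of SREBP1, YY1 and TEAD1 one of 508 bp, and those with SREBP1 and YY1 one of 1290 bp. The 273 regions with SREBP1 and TEAD1 but no YY1 had a median of 1320 bp (1255 to 1478 bp). Of the 2913 regions, 33.7% were in the widest of 4 classes made at the quartiles of all H3K27ac peaks (1234 bp or more), against 53.4% of the regions with YY1. The narrowest class (231 to 367 bp) held 15.4% of them, against 1.07% of the regions with YY1. A wide H3K27ac peak meets the lists that define the rule more often, so these widths are tied to the choice of regions.

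The low share of NR2F2 was present in every width class. It was 4.22% (19 of 450), 4.24% (28 of 661), 5.0% (41 of 820) and 6.82% (67 of 982) from the narrowest class to the widest. In the regions with none of the 3 factors it was 14.4%, 21.1%, 14.8% and 12.4%, so that the intervals of the 2 sets stayed apart in each class, and came nearest in the widest class (5.33 to 8.58% against 11.7 to 13.1%). RXRG went from 4.89% to 6.96%, 9.76% and 9.78%, against 8.20%, 15.5%, 13.9% and 15.8%. With the other classes weighted to the widths of these regions, the NR2F2 share was 15.4% for the regions with none of the 3 factors and 44.6% for those with SREBP1 and YY1. For RXRG the weighted shares were 14.0% and 34.5%. The NR2F2 share thus stood at 0.346 times, and the RXRG share at 0.597 times, the width-weighted share of the regions with none of the 3 factors.

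**Figure D2:**
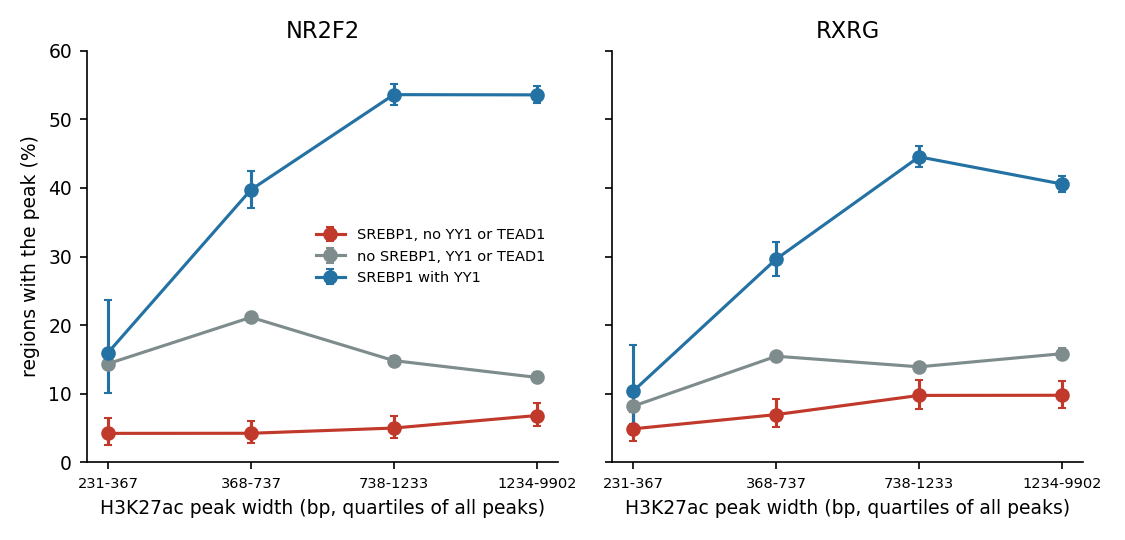
Share of acetylated regions (%, vertical axis) with NR2F2 (left) and RXRG (right) by class of H3K27ac peak width in bp (horizontal axis), for 3 classes of regions, with 95% exact binomial intervals. The SREBP1 regions without YY1 and TEAD1 lie lowest in every width class, from 4.22% to 6.82% for NR2F2 and from 4.89% to 9.78% for RXRG.

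A comparison at the SREBP1 peaks themselves counts overlap over a fixed width, since all SREBP1 peaks are 485 bp wide. The peaks were still classed by the acetylated region they met, so the width of the region enters through the classes. The 2913 regions held 2921 SREBP1 peaks, 9.92% of the 29435 in the list. Of these, 85 (2.91%, 2.33 to 3.59%) were met by an NR2F2 peak, where 17.5% of the other 26514 SREBP1 peaks were. RXRG met 115 (3.94%, 3.26 to 4.71%), where 9.60% of the others were. SREBP1 peaks in acetylated regions with YY1 were met by NR2F2 at 37.3% and by RXRG at 19.9%. At the lower end stood the 13256 SREBP1 peaks that lay outside H3K27ac and met neither YY1 nor TEAD1, with 0.407% (0.306 to 0.531%) for NR2F2 and 0.973% (0.813 to 1.16%) for RXRG. Acetylated SREBP1 peaks without YY1 and TEAD1 thus lay between these, and above the peaks outside acetylation in both receptors. For the peaks outside acetylation, YY1 and TEAD1 were judged at the SREBP1 peak, and for the acetylated ones over the region.

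Where a receptor was present in the region, it overlapped the SREBP1 peak in 51.0% of regions for NR2F2 and in 44.7% for RXRG. In the 155 regions with NR2F2, the nearest midpoints of an NR2F2 and an SREBP1 peak were a median of 389 bp apart (quartiles 172.5 and 786 bp), and in 79 (51.0%) the peaks overlapped. In the regions with SREBP1 and YY1 the median was 293 bp and 73.0% overlapped. For RXRG the median was 411 bp in the 244 regions, with overlap in 109 (44.7%), against 408 bp and 49.7% with YY1. The median spacing of RXRG from SREBP1 was therefore close in both classes, and that of NR2F2 was longer without YY1.

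The SREBP1 peak lay towards the border of the acetylated region more often than where YY1 was present. On a scale with 0 at the centre of the region and 1 at its edge, the SREBP1 midpoint was at a median of 0.693, against 0.520 in the regions with SREBP1 and YY1. The midpoint fell inside the region for 1994 of 2921 peaks (68.3%), against 82.8% with YY1, and 36.6% of the peaks lay wholly inside, against 56.4%. For the 274 SREBP1 peaks in regions with TEAD1 but no YY1 the median was 0.462. Of these, 84.7% had the midpoint inside and 60.9% lay wholly inside. Their regions were wider (median 1320 bp against 933 bp) and held TEAD1 by definition, so YY1, TEAD1 and width cannot be told apart here. In the narrowest width class, with only 20 peaks of regions with TEAD1 but no YY1, the median was 1.62, against 1.31 in the regions without both. In the wider classes it was 0.615, 0.499 and 0.415, against 0.883, 0.657 and 0.492. The gap between the regions without YY1 and TEAD1 and those with YY1 varied with the width of the region. In the widest class the position was 0.492 against 0.437, and 87.8% against 90.8% of midpoints lay inside. In the narrowest class it was 1.31 against 1.02, and 36.9% against 48.0% lay inside. In the classes between them the positions were 0.883 against 0.821 and 0.657 against 0.603. The order was thus the same in all 4 width classes, with smaller gaps than over all widths in each but the narrowest.

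**Figure D3:**
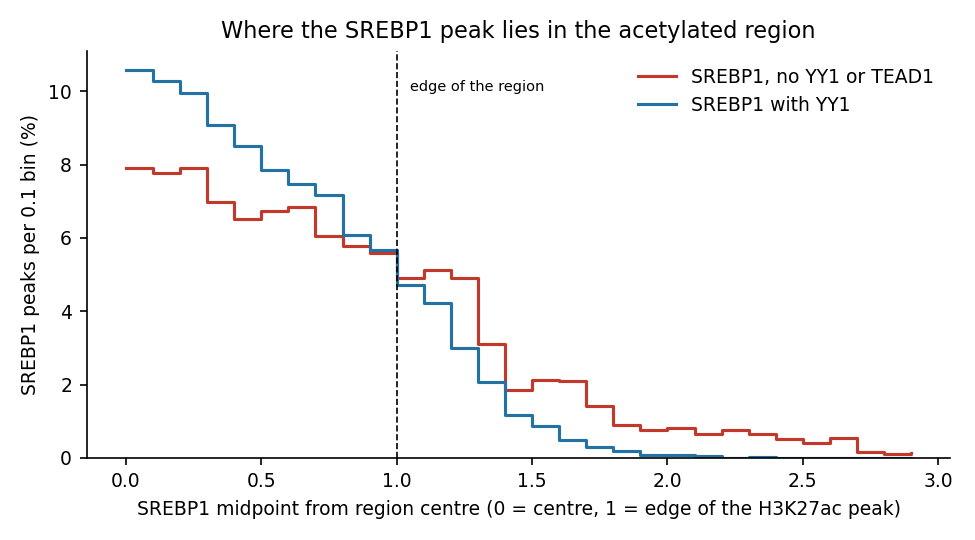
Distribution of SREBP1 peaks (% per bin, vertical axis) by the distance of their midpoint from the centre of the acetylated region, scaled so that 1 is the region's edge (horizontal axis). Peaks in regions without YY1 and TEAD1 (median 0.693) are spread further out than those in regions with YY1 (median 0.520), and values above 1 are midpoints outside the region.

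NR2F2 and RXRG peaks were also placed further out. On the same scale NR2F2 midpoints had a median of 0.562 in these regions, against 0.390 in the acetylated regions with none of the 3 factors and 0.283 in those with SREBP1 and YY1. RXRG midpoints had 0.585, against 0.480 and 0.317. All 3 factors described here thus lay nearer the border in regions without YY1 and TEAD1 than in those with YY1. These positions are not adjusted for the width of the regions.

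Each SREBP1 peak carries a deposited name ending in a number, and no source used here says what that number means. The numbers run from 1 upwards on each chromosome with gaps, and are given below as a percent of the highest number on the chromosome. The 2921 SREBP1 peaks of these regions had a median place of 47.8% (46.2 to 49.4%), with quartiles of 28.0 and 71.8%. The whole list had 39.8%, the SREBP1 peaks in regions with YY1 17.2% (16.8 to 17.8%) and those outside H3K27ac 57.1% (56.3 to 57.8%). The 274 peaks in regions with TEAD1 but no YY1 had 40.1% (34.0 to 45.5%). By this measure the SREBP1 peaks without YY1 and TEAD1 stood nearer to the peaks outside acetylation than to the acetylated peaks with YY1.

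The lowest of 4 equal ranges of numbers held 628 of the 2921 peaks (21.5%), where it held 34.6% of the whole list and 61.3% of the peaks with YY1. In the other direction, 6.16% of all SREBP1 peaks in the lowest range belonged to these regions, and then 12.2%, 12.0% and 11.4% in the following ranges. Only 127 peaks (4.35%) had a number within the lowest 10% of their chromosome, against 34.4% with YY1 and 3.29% outside H3K27ac. The regions thus hold few of the low-numbered SREBP1 sites, and a roughly even part of the rest.

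Across the name numbers, the shares of regions with NR2F2 and RXRG did not fall steadily in this set. NR2F2 was in 6.55% of the regions in the lowest range (4.74 to 8.78%), then in 4.57%, 4.13% and, in the highest range, 6.56% (4.77 to 8.77%). RXRG was in 9.27%, 6.91%, 8.13% and 9.84%. In the regions with SREBP1 and YY1, NR2F2 went from 58.7% (57.5 to 59.8%) to 34.1% (30.7 to 37.5%) and RXRG from 45.4% to 27.9%. The steady decline present with YY1 was not seen in the shares of regions here, although each range held only 31 to 42 regions with NR2F2. Counted at the SREBP1 peaks themselves, the shares varied more: NR2F2 met 4.62% of the peaks in the lowest range (29 of 628), then 2.67%, 1.73% (13 of 753) and 2.96%. RXRG met 5.10%, 2.78%, 3.85% and 4.52%. With YY1 the corresponding NR2F2 shares went from 45.2% to 20.4%. At the peaks, both receptors were thus most frequent in the lowest range, and neither was least frequent in the highest. For RXRG this rests on 32 of 628 peaks in the lowest range against 29 of 642 in the highest, and no interval was computed. Counted over regions, both shares were instead highest in the highest range, so the order of the ranges depended on the way of counting. The width of the regions also changed little, with medians of 939, 962, 915.5 and 874 bp.

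**Figure D4:**
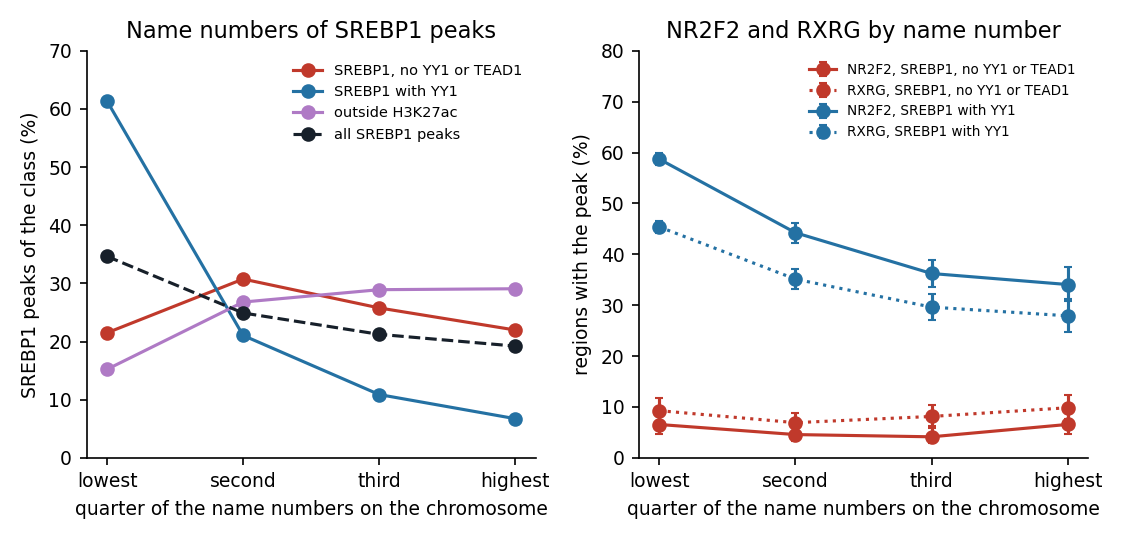
Left, SREBP1 peaks of each class (%, vertical axis) by range of the name number on their chromosome (horizontal axis). Right, share of regions (%) with NR2F2 (solid) or RXRG (dotted) by the same ranges, with 95% exact binomial intervals; without YY1 and TEAD1 NR2F2 stays between 4.13% and 6.56%, and with YY1 it goes from 58.7% to 34.1%.

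YY1 and TEAD1 lay several kb away from most of the regions. The nearest YY1 peak was a median of 13181 bp away (quartiles 6695 and 26905 bp) and the nearest TEAD1 peak 20454 bp. Acetylated regions with none of the 3 factors were at 16403 bp from YY1 and 23944 bp from TEAD1. YY1 lay within 500 bp of 3.06% of the regions and TEAD1 of 3.50%, against 1.31% and 1.64% of regions with none of the 3 factors, so that such close neighbours, though few, were more frequent here. A YY1 or TEAD1 peak lay within 500 bp of 150 regions (5.15%), and both were over 10000 bp away from 1602 (55.0%). Those 1602 remote regions held NR2F2 at 5.62% and RXRG at 8.30%, against 4.96% and 8.47% of the other 1311. The 150 regions within 500 bp held NR2F2 in 7 (4.67%) and RXRG in 7 (4.67%), against 5.36% and 8.58% of the 2763 further away. The shares were thus close on either side of 10000 bp. The lower RXRG share within 500 bp rests on 7 of 150 regions, and no interval was computed for it. At 78 of the 2921 SREBP1 peaks the part that reached beyond the acetylated region met a YY1 or TEAD1 peak there.

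**Figure D5:**
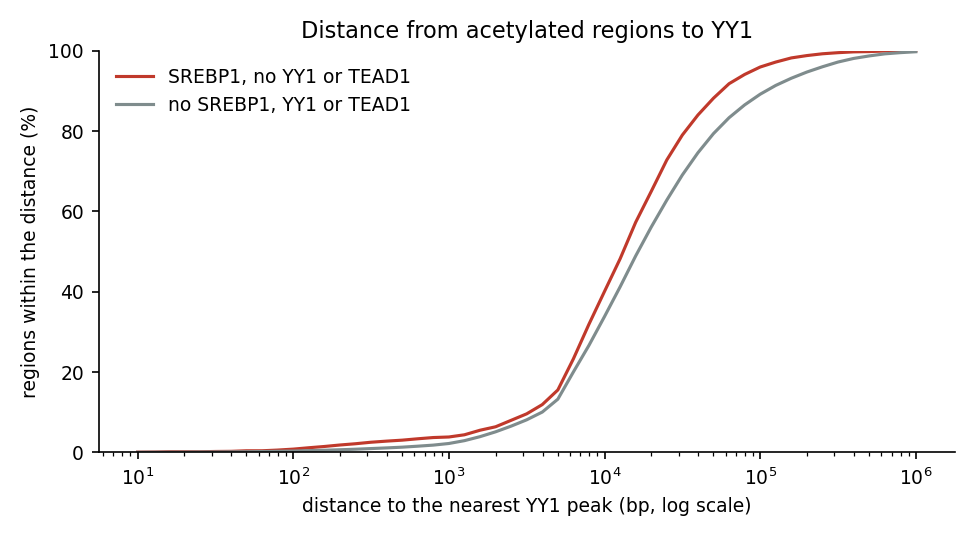
Cumulative share of acetylated regions (%, vertical axis) within a given distance of the nearest YY1 peak (bp, log scale, horizontal axis), for regions with SREBP1 but without YY1 and TEAD1 and for regions with none of the 3. The first set is the nearer one, with 40.1% against 33.8% within 10000 bp, and under 4% of either set lies within 1000 bp.

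Within 10000 bp, acetylated neighbours of these regions were about as frequent as in the other classes. Another H3K27ac peak lay within 10000 bp of 2228 of them (76.5%), and one that held YY1 within 10000 bp of 1035 (35.5%). For the regions with none of the 3 factors these shares were 72.4% and 30.1%, and for those with SREBP1 and YY1 70.6% and 36.8%. The nearest other H3K27ac peak was a median of 5439 bp away from the 2913 regions. The medians were 5330 bp with none of the 3 factors and 6768 bp with SREBP1 and YY1. The nearest such peak thus lay closer here than in the regions with SREBP1 and YY1. A further SREBP1 region without YY1 and TEAD1 was within 10000 bp of 181 of the 2913 regions (6.21%), the median distance being 135983 bp. Such a region was within 10000 bp of 4.26% of the regions with none of the 3 factors and of 3.81% of those with SREBP1 and YY1. The regions thus lay near another region of this set somewhat more often than regions of the other classes did, but in few cases. No H3K27ac peaks of the list are closer to each other than 926 bp.

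Regions at the limits of the rule had the following values. In 176 regions the overlap with SREBP1 was 50 bp or less, and 10 of these (5.68%) held NR2F2 and 13 (7.39%) RXRG. Just outside the rule, 170 acetylated regions without YY1 and TEAD1 had an SREBP1 peak beyond their edge but within 50 bp, and 6 (3.53%) held NR2F2 and 9 (5.29%) RXRG. A YY1 or TEAD1 peak lay within 50 bp of 21 regions, of which none held NR2F2 and 1 held RXRG. In 26 SREBP1 regions the overlap with YY1 and TEAD1 was no more than 50 bp, and 2 held NR2F2 and 3 RXRG.

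Single regions are named by position on build rn5, counting from 1, since no rn5 annotation or sequence was used here, and genes and bases at these sites are not given. The widest was on chromosome 2 at 113934774 to 113940102 (5329 bp), with 1 SREBP1 peak at 113938033 to 113938517 and neither receptor. The next widest, on chromosome 12 at 50321814 to 50326992 (5179 bp), also held neither. Of the 5 widest regions, 4355 to 5329 bp, the one on chromosome 1 at 192386865 to 192391450 held 2 RXRG peaks and the one on chromosome 12 at 45573889 to 45578243 held 1 NR2F2 peak. The remaining 3 of the 5 held neither receptor.

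Among the 8 regions with 2 SREBP1 peaks the widest was on chromosome 2 at 268348925 to 268352453 (3529 bp). It was also the widest to hold both receptors, with 1 NR2F2 and 1 RXRG peak, and its SREBP1 peaks had the name numbers 1946 and 3246 of 4030. YY1 was 48661 bp and TEAD1 48499 bp away. The next widest with both receptors was on chromosome 3 at 9266792 to 9269563 (2772 bp). The 5 widest with both ranged from 2331 to 3529 bp, with places in the name numbers from 3.53 to 97.7%. No common place in the numbering is seen in them.

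The region with the lowest place in the name numbers was on chromosome 15 at 18031761 to 18032205. It is 445 bp wide, its SREBP1 peak at 18031564 to 18032048 has the number 5 of 1689, and it held 1 NR2F2 peak and no RXRG peak. Its nearest YY1 peak was 362540 bp away. The next lowest were on chromosome 3 at 14411170 to 14411850 (number 14 of 3753) and on chromosome 1 at 71012340 to 71012879 (number 29 of 6114), both without receptors. The fifth, on chromosome 8 at 36776960 to 36778896 (number 22 of 2828), held both receptors and lay 9385 bp from YY1. Of these 5 regions, 2 held NR2F2 and 1 held RXRG.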

How the data were processed

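The 6 deposited peak lists were used, with 1 library per target. Per the submitters' processing notes, the authors worked on build rn5 with MACS2, Bowtie2, deepTools, bedtools and bcl2fastq 2.20.0.422, whose roles and settings are not stated. For peak thresholds and for controls no statement was found, and the nerve input was not analysed here. The deposited score is 1 in every SREBP1 peak and was not used. Mitochondrial peaks were dropped. Overlap of 1 bp or more defined presence. Distances run from edge to edge. The members and the comparisons were chosen with earlier results of these data known. Named regions are the 5 widest, the 5 with most SREBP1 peaks, the 5 of lowest place in the name numbers and the 5 widest with both receptors, and part of these are printed. Alternatives were another overlap, the midpoint, extension, joining, placed chromosomes, YY1 alone, lower-numbered names and wider peaks. Added after seeing the data were a distance of over 10 kb from YY1 and TEAD1, and ranks of the numbers. Functions were tested on simulated data. Python 3.11.15, NumPy 2.4.6, SciPy 1.17.1, pandas 2.3.3 and Matplotlib 3.10.9 were used.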

Additional observations from a re-analysis of the deposited data

How the results depend on the processing

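The 7 results were recomputed under 9 alternative settings, and the place in the name numbers under 1 more, which gave 64 values. Of these, 47 stayed within the interval of the original (or, for the number of regions, within 1.5 times it) and 17 moved. A change of direction was defined only for the ratios of shares, and none occurred. The ratio of the NR2F2 share to that of regions with none of the 3 factors ran from 0.329 to 0.430, the highest among H3K27ac peaks wider than the median, and that of RXRG from 0.622 to 0.743. With factor peaks extended by 500 bp, NR2F2 was in 6.56% and RXRG in 10.6% of the regions, whose median width was 790 bp. With at least 50% of the shorter peak shared, RXRG was in 7.15% and the median width was 1046 bp. The midpoint rule gave 1099 bp and a median place in the name numbers of 46.2%. Allowing TEAD1 gave 964 bp. H3K27ac peaks wider than the median left 1802 regions, with RXRG in 9.77% and a median width of 1299 bp. The lower-numbered 50% of SREBP1 names left 1161 regions at a median place of 24.1%, as the choice fixes. Regions over 10 kb from YY1 and TEAD1, an alternative added after seeing the data, numbered 1602 at a median place of 50.7%. Ranks among the deposited peaks, also added afterwards, gave 57.8%, where the whole list has 50.04%. For the other moved values the cause was not tested. Read depth is unknown, so that a receptor peak missed for depth cannot be told from an absent one. No paired analysis was possible because there was a single library of every kind.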

Other observations

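The regions made up between 15.6% (X) and 24.1% (chromosome 17) of the acetylated SREBP1 regions of a chromosome, and between 2.04% (X) and 4.34% (chromosome 5) of its H3K27ac peaks. The share with NR2F2 was below that of the regions with none of SREBP1, YY1 and TEAD1 on all 21 chromosomes, and the share with RXRG on 20. The exception was chromosome 15, where 14 of 93 regions (15.1%) held RXRG, against 12.4%. On X, 2 of 46 regions (4.35%) held NR2F2, against 39.0% of the X-linked regions with none of the 3 factors, the highest such share of any chromosome. Against the regions with SREBP1 and YY1 both shares were lower on all 21 chromosomes.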
